A study of Sus scrofa with 60 samples.

Results

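The question was whether the liver responds to bile duct ligation (BDL) in the same way on a mixed lipid emulsion (MLE) as on a soy lipid emulsion (SLE). For each gene, the BDL response was the log2 ratio of BDL over sham pigs on 1 emulsion, and the comparison was the response on MLE minus the response on SLE. A negative difference therefore means a response that was lower, or more negative, on MLE. The groups were taken from the diet and surgery in the labels, and the 4 parenteral groups held 38 of the 60 pigs of the study: 9 sham and 8 BDL pigs on MLE (MLE-sham and MLE-BDL), and 10 sham and 11 BDL pigs on SLE (SLE-sham and SLE-BDL).

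All pigs were mixed Landrace and Hampshire newborns, delivered preterm by cesarean section, which had catheters placed and had either sham surgery or ligation of the common and cystic bile duct at the start of life. SLE pigs then received parenteral nutrition with Intralipid, which is made from soybean oil (diet label IL). MLE pigs received SMOFlipid, a blend of soybean, fish, and olive oil with medium-chain triglycerides (diet label SL), and the liver was sampled after 14 days. Enterally fed pigs (ENT, 22 in all) entered no comparison, but they were part of the filter on low counts and of the estimate of the spread between pigs. Without them 44 genes were called for the difference, 29 of which are among the 43 called below.

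When bile cannot leave the liver, bile acids accumulate, bile ducts proliferate, and inflammatory and matrix genes rise, while hepatocytes reduce parts of their own program. Hepatocytes make most plasma proteins, and the acute phase proteins among them, such as haptoglobin and fibrinogen, are driven mainly by interleukin-6 type cytokines. Soybean oil is rich in n-6 fatty acids and plant sterols, whereas fish oil brings n-3 fatty acids and vitamin E.

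Each parenteral library held 14469788 to 19013668 reads counted on named genes (median 17206950.5), and 16210 genes passed the filter on low counts. Levels are given as CPM, a gene's share of the reads of its library times 1e6, with library sizes scaled by the trimmed mean of M-values (TMM), and differences as log2 values with their standard error (SE). The 27 hepatocyte markers were all detected and summed to 111700 to 226100 CPM in a pig. In bulk liver, fewer cells of a type and less RNA per cell cannot be told apart. TMM scaling factors were 0.8852 to 0.9998 in MLE-sham and 1.056 to 1.121 in MLE-BDL, which did not overlap, against 0.9242 to 1.065 in SLE-sham and 0.8516 to 1.131 in SLE-BDL. The pig labels carry a number with 8 values whose meaning is not given, and it was not balanced: MLE pigs carried only 4 of the values, and 5 of the 11 SLE-BDL pigs carried 1 value that no SLE-sham or MLE pig had. SLE-sham replicates 9 and 10 share their whole pig identifier.

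BDL changed more genes on MLE than on SLE, at a threshold of an adjusted p under 0.05 in edgeR. On MLE 2339 genes were called (14.4% of those tested; 1273 higher, or 7.85%, and 1066 lower, or 6.58%), and on SLE 736 genes (4.54%; 482 higher, or 2.97%, and 254 lower, or 1.57%). The split on MLE depends on the scaling, since library totals without TMM gave 4641 genes higher and 443 lower. These counts do not test whether the responses differ. Over all genes tested, the responses correlated across genes at a Pearson r of 0.5501 and a Spearman rho of 0.4851, and 68.36% of genes had the same sign; genes are not independent replicates. Of the 421 genes called on both emulsions, 420 went the same way and 320 had the larger fold on MLE. The median response of the 293 genes higher on both was 1.05 on MLE and 0.82 on SLE, and that of the 127 lower on both was -0.60 and -0.46.

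The difference itself passed the threshold for 43 genes (0.265%), of which 11 had a higher (0.0679%) and 32 a lower response on MLE (0.197%). At an unadjusted p under 0.05 there were 1582 genes, 720 higher and 862 lower. The split by direction depends on the scaling: with library totals alone, 124 genes were called, 109 higher and 15 lower, and the median of all differences moved from 0.00446 to 0.213 on the log2 scale. The 43 genes kept their direction under that scaling, and 26 of them stayed called, 11 higher and 15 lower. Directions are reported here relative to the TMM scale. Leaving out 1 pig at a time gave from 22 to 96 genes. The fewest were called when MLE-BDL replicate 5 was left out, and the most when SLE-BDL replicate 6 was. All 43 genes kept their direction in each of these 38 fits. Restricted to pigs whose label number an MLE pig also carries (3 SLE-BDL and 5 SLE-sham pigs left), only FAM20A was called. Without SLE-sham replicate 9 there were 65 genes, and without replicate 10, which shares its identifier, 35.

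**Figure D1:**
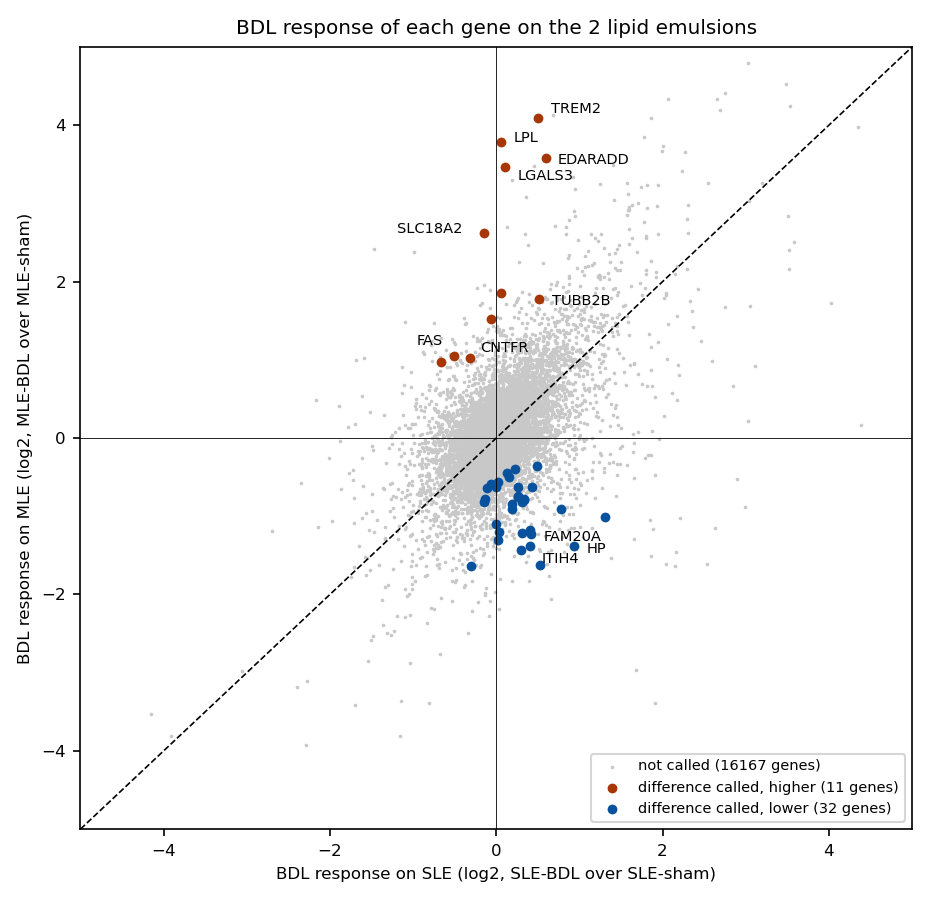
BDL response on SLE (horizontal, log2) against the response on MLE (vertical, log2), with 1 point per gene; 3 genes lie outside the axes, and the dashed line marks equal responses. The 11 genes called as higher lie above the line near 0 on the SLE axis, and the 32 called as lower lie below it.

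Among the 11 genes with the higher difference, all 11 rose after BDL on MLE and none was called on SLE. Their median response was 1.85 on MLE and 0.06 on SLE. Of these 11 genes, 7 were already called between the sham groups (0.999% of all genes) and 2 between the BDL groups (0.907%), with medians of -1.26 in sham and 0.37 in BDL pigs, MLE over SLE. Among the 32 with the lower difference, 30 fell after BDL on MLE and 3 were called on SLE, with median responses of -0.82 and 0.26. For these, 9 were called between sham groups and 11 between BDL groups, with medians of 0.41 and -0.52. With the label number of the pigs as a block, the calls between BDL groups over all genes dropped from 147 to 16. MLE-sham and MLE-BDL values did not overlap for 5 of the 11 and 16 of the 32 genes (2.94% of all genes). SLE-sham and SLE-BDL overlapped for all 43 (0.074% of all genes did not). Values of the sham groups were apart for 1 and 2 of these genes (0.074%), and those of the BDL groups for 0 and 1 (0.037%). Since the genes were selected on the difference, opposite responses among them are a description and no further evidence.

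The genes with a lower response on MLE were led by FAM20A and by acute phase proteins. FAM20A, a pseudokinase that assists the secretory pathway kinase FAM20C, lies at chr12:11606469-11663086 of Sscrofa11.1. It ran from 33.7 to 50.8 CPM (median 39.4) in MLE-sham and from 13.3 to 25.1 CPM (median 16.3) in MLE-BDL. On SLE it ran from 18.8 to 42.7 CPM (median 31.1) in sham and from 21.8 to 83.2 CPM (median 37.8) in BDL pigs. All 8 MLE-BDL pigs lay below all 9 MLE-sham pigs, whereas the SLE groups overlapped. The response was -1.23 ± 0.18 (SE) on MLE and 0.41 ± 0.16 on SLE, and the difference of -1.65 ± 0.24 had an adjusted p of 5.10e-05, the smallest of all genes.

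ITIH4, an inter-alpha-trypsin inhibitor heavy chain and a major acute phase protein of the pig (chr13:34928455-34948250), showed the same pattern. Its level was 3187 to 6886 CPM (median 4241) in MLE-sham and 1301 to 2213 CPM (median 1646) in MLE-BDL, with no overlap. In SLE-sham it was 1840.0 to 4274 CPM (median 2362) and in SLE-BDL 1914 to 8769 CPM (median 3187), and these overlapped. The difference was -1.78 ± 0.31 (adjusted p = 0.00311, edgeR).

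HP, the haptoglobin that binds free hemoglobin (chr6:14980382-14985245), was the gene called after BDL on both emulsions in opposite directions. It was at 2586 to 12078 CPM (median 6616) in MLE-sham and 1465 to 3624 CPM (median 2376) in MLE-BDL. In SLE-sham it was at 2082 to 6479 CPM (median 3926) and in SLE-BDL at 2954 to 21665 CPM (median 5583). SLE-BDL replicates 7 and 5 were highest, at 21665 and 13917 CPM. Replicates 11, 6, and 2 of that group, at 2954 to 3242 CPM, lay below the SLE-sham median. HP fell on MLE by 1.38 (log2; adjusted p = 0.00146, edgeR) and rose on SLE by 0.94 (adjusted p = 0.0399), although both pairs of groups overlapped. It was the 1 gene called for the difference among the 421 called on both emulsions, with a difference of -2.32 ± 0.42 (adjusted p = 0.00388). Restricted to pigs whose label number an MLE pig also carries, the HP difference was -1.50 (adjusted p = 0.242, edgeR).

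The 3 fibrinogen chains FGA, FGB, and FGG, which form the clot precursor and lie next to one another on chromosome 8 (FGG at chr8:74553040-74562151, FGA at chr8:74574870-74584202, FGB at chr8:74598170-74607409), moved together. FGB was at 8596 to 13976 CPM (median 10840.4) in MLE-sham and 5048 to 7219.8 CPM (median 6598) in MLE-BDL, and FGA and FGG were likewise apart between these groups. In SLE pigs FGB was at 6848 to 12329 CPM (median 8955) in sham and 6269 to 18676 CPM (median 10943) in BDL, which overlapped. Differences were -1.11 ± 0.23 for FGA, -1.13 ± 0.23 for FGB, and -1.13 ± 0.23 for FGG, with adjusted p values of 0.0131, 0.0127, and 0.0107 in edgeR. FGL1, a fibrinogen-like protein secreted by hepatocytes, had a smaller margin, with a difference of -1.004 ± 0.23 (adjusted p = 0.0374).

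**Figure D2:**
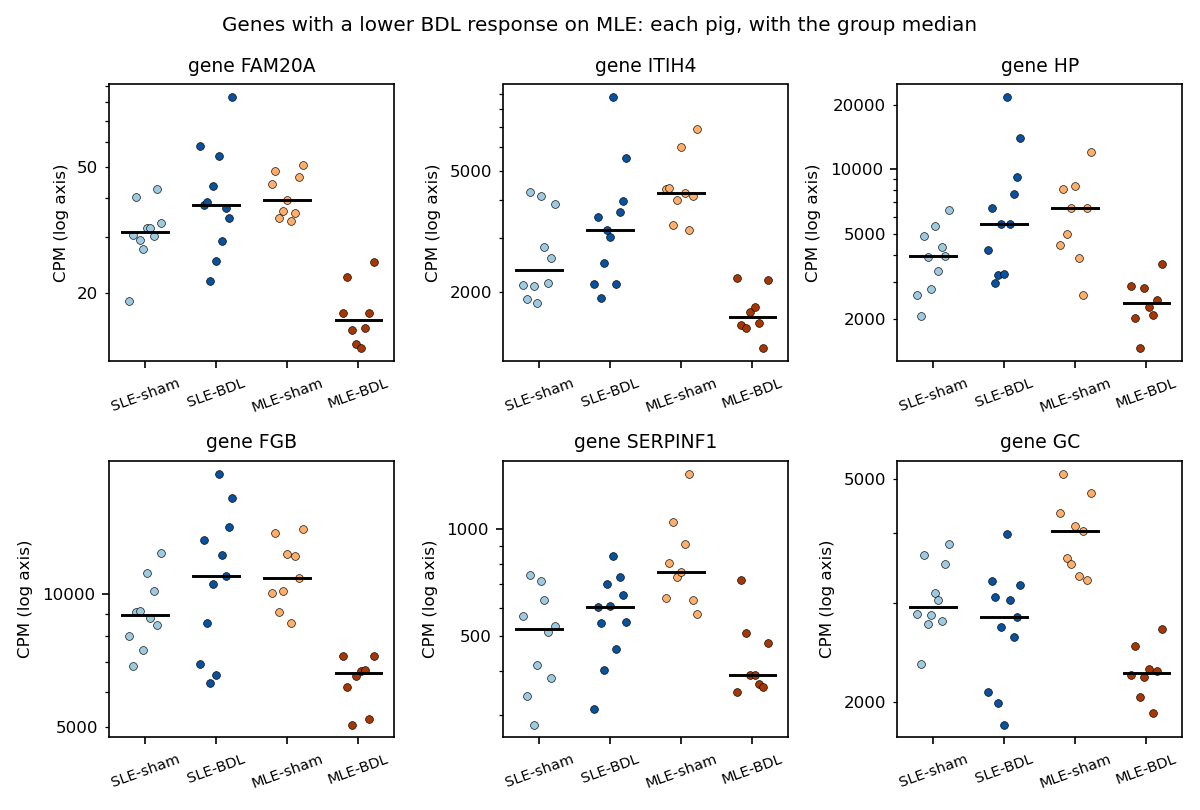
CPM on a log axis in each pig of the 4 parenteral groups for 6 genes with a lower BDL response on MLE; each point is a pig and the line is the group median. MLE-BDL pigs lie below all MLE-sham pigs for FAM20A, ITIH4, FGB, and GC, and the SLE groups overlap in all 6 panels.

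GC, the vitamin D binding protein of plasma (chr8:68326293-68360262), was at 3298 to 5109 CPM (median 4037) in MLE-sham and 1908 to 2696 CPM (median 2255) in MLE-BDL, without overlap. It was at 2339 to 3827 CPM (median 2958) in SLE-sham and 1821 to 3991 CPM (median 2834) in SLE-BDL, and the difference was -0.68 ± 0.16 (adjusted p = 0.0313, edgeR). SERPINF1, the pigment epithelium-derived factor, was at 579 to 1436 CPM (median 759) in MLE-sham and 349 to 721 CPM (median 389) in MLE-BDL. Its SLE groups spanned 282 to 743 CPM (median 525) and 313 to 839 CPM (median 605), and MLE-sham was already higher than SLE-sham by 0.71 ± 0.16 (adjusted p = 0.0137). The difference of SERPINF1 was -1.10 ± 0.23 (adjusted p = 0.0142).

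CERS4, a ceramide synthase, had a response called on SLE, at 0.49 ± 0.12, and not on MLE, at -0.35 ± 0.13 (adjusted p = 0.0102 and 0.0599 in edgeR). It was at 76.4 to 137 CPM (median 94.9) in SLE-sham and 100.5 to 210.1 CPM (median 127) in SLE-BDL. The following 4 genes were outside the naming rule and were chosen after their values were seen. TTPA, the hepatic transfer protein for vitamin E, was at 65.3 to 138 CPM (median 97.1) in MLE-sham and 41.6 to 79.3 CPM (median 53.2) in MLE-BDL, with a difference of -1.01 ± 0.24. G6PC, the catalytic subunit of glucose-6-phosphatase that releases glucose from the liver, was at 93.5 to 429.9 CPM (median 232) in MLE-sham and 45 to 133 CPM (median 91.9) in MLE-BDL, with a difference of -1.72 ± 0.42. PCTP, a phosphatidylcholine transfer protein, was at 37 to 96 CPM (median 67.1) in MLE-sham and 22.3 to 30.7 CPM (median 25) in MLE-BDL, with no overlap and a difference of -1.32 ± 0.32. QSOX1, a secreted enzyme that forms disulfide bonds, differed by -0.65 ± 0.16. These 4 genes lay close to the threshold, with adjusted p values of 0.0438, 0.0462, 0.0462, and 0.0469. With the label number of the pigs as a block, neither CERS4 (adjusted p = 0.053) nor any of these 4 (adjusted p from 0.0555 to 0.106) was called.

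The remaining genes with a lower response had other roles, and most had an MLE over SLE log2 ratio between 0 and 1 in the sham groups. EFNA1, a membrane-bound ephrin ligand, had a difference of -1.06 ± 0.21, and its level in MLE-sham was 52.7 to 137 CPM (median 77.1) against 38.6 to 74.5 CPM (median 55.9) in MLE-BDL. NFIB, a transcription factor of the nuclear factor I family, differed by -0.62 ± 0.13. CLDN1, a claudin of tight junctions, was at 89 to 130.3 CPM (median 116) in MLE-sham and at 52.2 to 76.4 CPM (median 62.8) in MLE-BDL, with no overlap and a difference of -0.64 ± 0.15. NEK7, a kinase needed for the NLRP3 inflammasome, differed by -0.52 ± 0.12. RAB15, a small GTPase of endosomal traffic, and C8H4orf32 were apart both between the MLE groups and between the sham groups. RAB15 was at 18.7 to 34.7 CPM (median 23.2) in MLE-sham and 9.1 to 18.6 CPM (median 17.4) in SLE-sham, with a difference of responses of -1.04 ± 0.23, and C8H4orf32 differed by -1.10 ± 0.25. WDR86 was called with a difference of -1.53 ± 0.30 and was higher in MLE-sham than in SLE-sham by 1.15 ± 0.21. ACTR3B, GDF9, RASGEF1B, and ZCCHC24 completed the first 30 called genes with a symbol, at -0.88, -0.52, -0.58, and -0.62. HOMER2 and PACSIN3, also outside the rule, were at -1.24 and -0.58. Of 6 called features without a gene symbol, the 3 with the smallest adjusted p were long noncoding RNAs with a lower response on MLE. Their differences were -1.32 ± 0.24 for LOC100627270, -2.31 ± 0.49 for LOC106504875, and -1.58 ± 0.36 for LOC102166227. LOC106504875 was the called gene whose BDL groups did not overlap, at 1.14 to 7.28 CPM (median 2.45) on SLE and 0.218 to 0.964 CPM (median 0.685) on MLE.

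The genes with a higher response on MLE were mostly low in MLE-sham pigs and reached the SLE range after BDL. LGALS3, the galactoside-binding lectin galectin-3 made by macrophages and by injured epithelium (chr1:184478639-184496155), was at 1.02 to 3.53 CPM (median 1.56) in MLE-sham and at 9.42 to 30.3 CPM (median 16.8) in MLE-BDL. In SLE-sham it was at 3.37 to 59.9 CPM (median 14.9) and in SLE-BDL at 6.09 to 41.7 CPM (median 27.8). MLE groups did not overlap, SLE groups did, and 1 MLE-sham pig reached into the SLE-sham range. The response was 3.46 ± 0.52 on MLE and 0.11 ± 0.40 on SLE, and the difference was 3.35 ± 0.64 (adjusted p = 0.00689, edgeR). Between sham groups the value of LGALS3 was -3.85 ± 0.51, lower on MLE (adjusted p = 7.09e-06), and between BDL groups the value was -0.50 ± 0.43 (adjusted p = 0.669).

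LPL, lipoprotein lipase, which frees fatty acids from triglyceride-rich particles (chr14:4104761-4134964), is little expressed by adult hepatocytes and is also made by lipid-laden macrophages. It was at 0.0558 to 0.538 CPM (median 0.25) in MLE-sham and at 0.523 to 9.09 CPM (median 2.52) in MLE-BDL. All 9 MLE-sham pigs were below all SLE-sham pigs, which were at 0.581 to 10.5 CPM (median 2.41), and SLE-BDL pigs were at 1.19 to 9.53 CPM (median 4.4). MLE groups overlapped by 1 narrow margin, and the difference was 3.73 ± 0.81 (adjusted p = 0.021, edgeR). TREM2, a lipid-sensing receptor of macrophages (chr7:36465921-36471509), had few counts and was at 0 to 0.299 CPM (median 0.0624) in MLE-sham and 0.206 to 4.04 CPM (median 1.76) in MLE-BDL. It was at 0.204 to 1.99 CPM (median 0.664) in SLE-sham and 0.244 to 2.81 CPM (median 0.983) in SLE-BDL. The difference of TREM2 was 3.59 ± 0.80 (adjusted p = 0.0242), and its groups overlapped on both emulsions.

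FAS, the death receptor that binds FAS ligand (chr14:100927305-100954781), was at 1.08 to 3.34 CPM (median 1.27) in MLE-sham and 2.57 to 4.62 CPM (median 3.18) in MLE-BDL. It was at 1.45 to 5.26 CPM (median 3.6) in SLE-sham and 1.41 to 3.59 CPM (median 2.38) in SLE-BDL. Responses were 1.05 ± 0.23 on MLE and -0.51 ± 0.20 on SLE, with a difference of 1.56 ± 0.31 (adjusted p = 0.00751, edgeR). The gene CPM, which encodes carboxypeptidase M of the cell membrane, ran from 0.813 to 1.88 in MLE-sham and from 1.9 to 5.85 CPM units in MLE-BDL, just apart, with a difference of 1.59 ± 0.34. TUBB2B, a beta-tubulin, was at 0.718 to 3.06 CPM (median 1.81) in MLE-sham and 4.52 to 7.76 CPM (median 6.97) in MLE-BDL, without overlap, and differed by 1.26 ± 0.30.

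CNTFR, the receptor subunit for ciliary neurotrophic factor in the interleukin-6 family (chr10:32211809-32251412), was at 8.37 to 12.2 CPM (median 9.16) in MLE-sham and 7.7 to 13.9 CPM (median 9.46) in SLE-sham. It was at 8.21 to 38.2 CPM (median 17.1) in MLE-BDL and 6.89 to 10.3 CPM (median 7.85) in SLE-BDL. The sham groups had a log2 ratio of -0.08 ± 0.18, while MLE-BDL exceeded SLE-BDL by 1.26 ± 0.18 (adjusted p = 1.66e-05, edgeR), and 2 MLE-BDL pigs lay within the SLE-BDL range. The difference of CNTFR was 1.34 ± 0.25 (adjusted p = 0.00685). SLC18A2, a vesicular monoamine transporter, was at 0.0641 to 1.23 CPM (median 0.469) in MLE-sham and 1.02 to 7.18 CPM (median 3.32) in MLE-BDL, with a difference of 2.77 ± 0.59. Its SLE-sham pigs were at 0.307 to 2.64 CPM (median 1.59), and the log2 ratio of MLE over SLE in sham pigs was -1.20 ± 0.43 (adjusted p = 0.187). EDARADD, an adaptor of the ectodysplasin receptor, was at 0 to 0.437 CPM (median 0.179) in MLE-sham and 0.831 to 4.68 CPM (median 2.13) in MLE-BDL, with a difference of 2.99 ± 0.71. In SLE-sham it was at 0.0595 to 1.78 CPM (median 0.592), with a log2 ratio in sham pigs of -1.63 ± 0.55 (adjusted p = 0.154). ZNF683, a transcription factor of resident lymphocytes outside the naming rule, differed by 1.63 ± 0.40 (adjusted p = 0.0462), and its ratio in sham pigs was -0.86 ± 0.28.

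**Figure D3:**
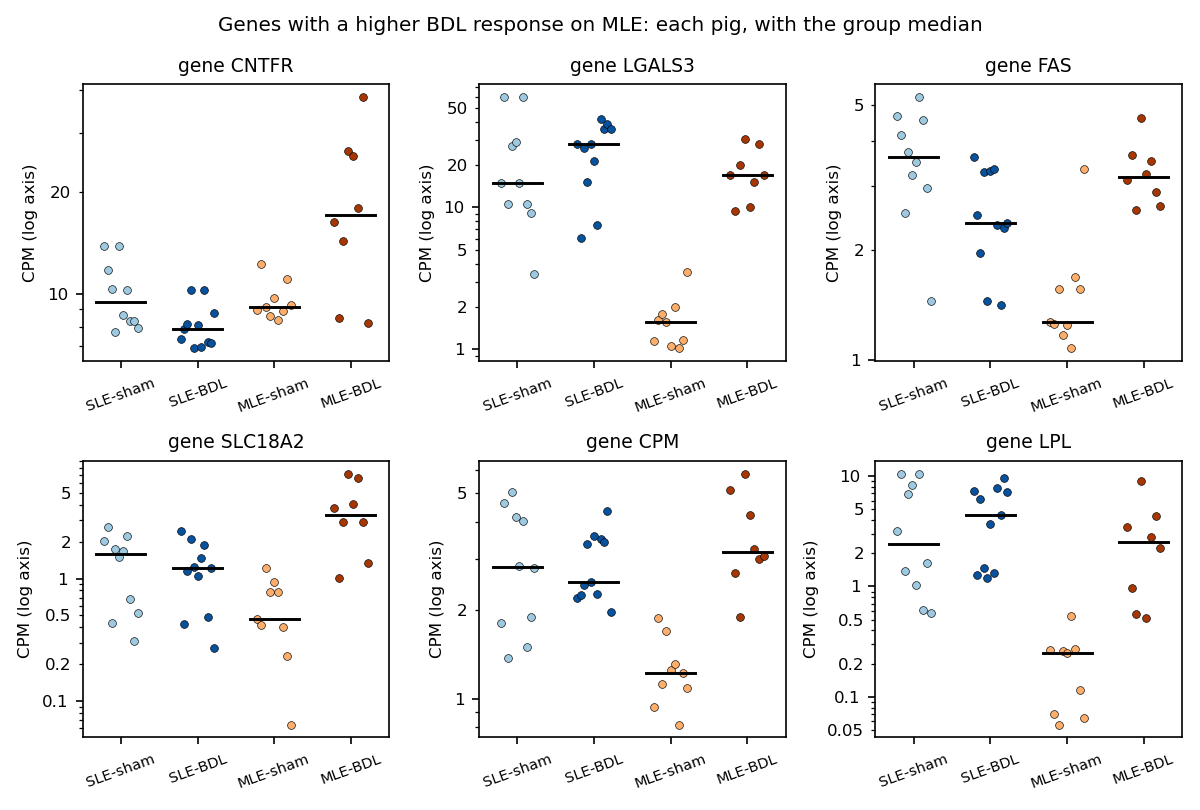
CPM on a log axis in each pig of the 4 parenteral groups for 6 genes with a higher BDL response on MLE; each point is a pig and the line is the group median. MLE-sham has the lowest median in the panels of LGALS3, FAS, CPM (carboxypeptidase M), and LPL, while in the CNTFR panel MLE-BDL has the highest median.

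With the label number of the pigs as a block in the model, 33 genes were called for the difference and 24 of the 43 were among them. FAM20A kept an adjusted p of 0.0015, LGALS3 of 0.011, ITIH4 of 0.0135, HP of 0.015, and the fibrinogen genes of 0.025 to 0.0308. Of the 40 called genes named here, 17 were no longer called, with adjusted p from 0.053 to 0.134. Among the genes with a higher response these were TREM2, LPL, CPM (carboxypeptidase M), EDARADD, SLC18A2, and ZNF683. Among those with a lower response they were CERS4, TTPA, ZCCHC24, RASGEF1B, PCTP, G6PC, C8H4orf32, QSOX1, RAB15, PACSIN3, and CLDN1. Of the same 40, 17 were called in all 38 fits that left out 1 pig, and 11 in fewer than 20 of them.

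**Figure D4:**
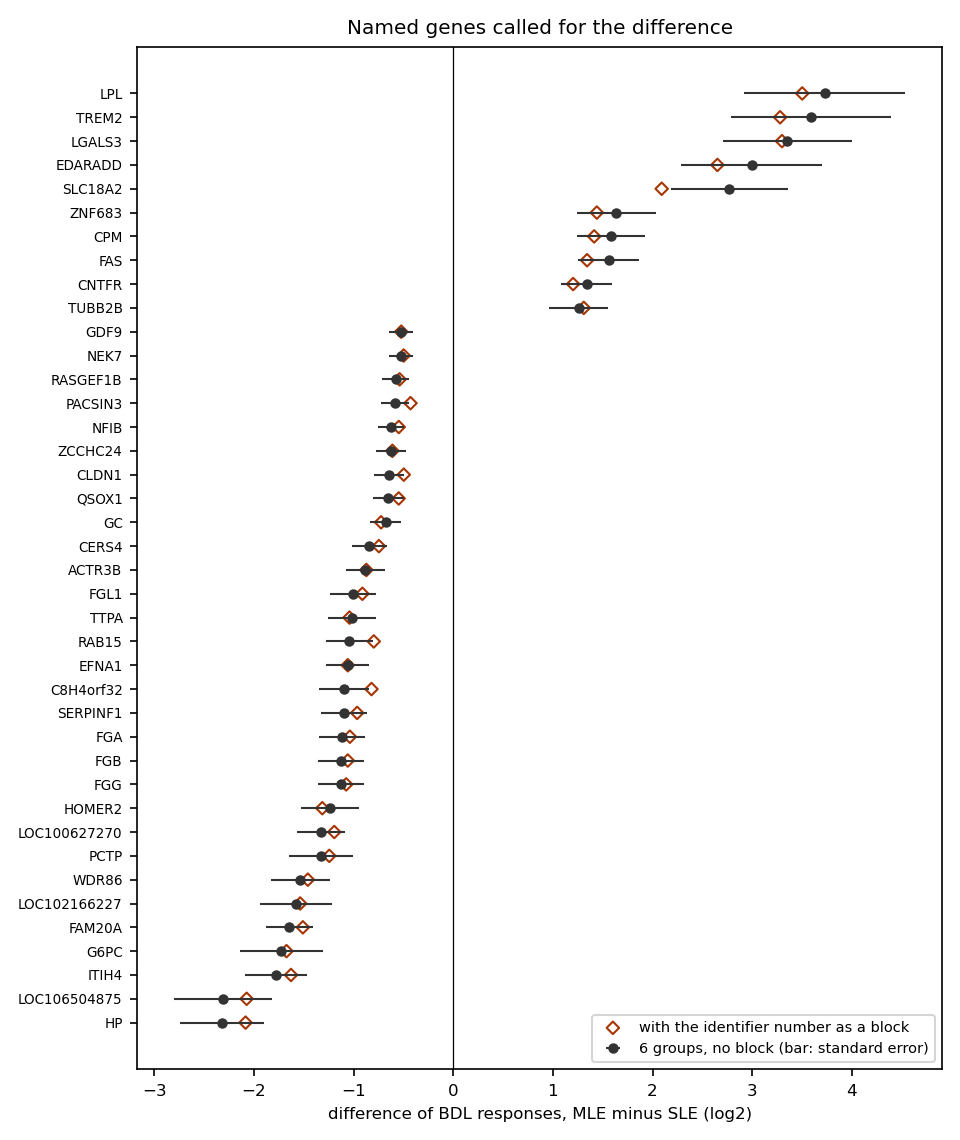
Difference of BDL responses, MLE minus SLE, on the log2 scale for the 40 named genes called; black points and bars are the estimate and its SE, and open diamonds the estimate with the label number of the pigs as a block. The diamonds lie on the same side of 0 as the points for all 40 genes.

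Acute phase genes held 5 of the 43 called genes. Of 30 acute phase genes, 5 were called for the difference, all lower (ITIH4, HP, FGA, FGB, and FGG; 0.197% of all genes), and 27 had a difference below 0, beside 7944 of all 16210 genes. Leaving out SLE-BDL replicate 7 gave the smallest difference for each of these 5 genes, and all 5 stayed called. The values without that pig were -1.57 for ITIH4, -2.03 for HP, -1 for FGA, -1.04 for FGB, and -1.03 for FGG. The median difference of the list was -0.779, against 0.00446 over all genes, and it was -0.516 with library totals alone. On MLE 16 of these 30 genes fell (6.58% of all genes) and none rose, with a median response of -0.715. On SLE 1 rose (2.97% of all genes) and none fell, with a median of 0.299. The summed level of the list, 25.3% of it ALB, was 176400 to 253900 CPM in MLE-sham and 116000 to 138200 in MLE-BDL, which did not overlap. It was 141900 to 217500 in SLE-sham and 117000 to 234500 in SLE-BDL. How far this sum takes part in the scaling between the MLE groups was not tested.

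Coagulation and complement genes, a list without the fibrinogen chains FGA, FGB, and FGG, had 41 of 49 differences below 0 and a median of -0.365 (38 of 49 and -0.143 with library totals alone), and none was called in edgeR, against 5 in DESeq2, 9 in limma, and 1 in edgeR with the label-number block. Of all 16210 genes these fits called 119 in DESeq2, 153 higher and 176 lower in limma, and 33 with the block. On MLE 21 of the 49 fell and 5 rose, beside 6.58% and 7.85% of all genes, and on SLE 4 rose and none fell, beside 2.97% and 1.57%. F2, prothrombin, had a difference of -0.51 ± 0.13 (adjusted p = 0.0554, edgeR), and SERPINF2, the plasmin inhibitor, of -0.58 ± 0.15 (adjusted p = 0.0591). These differences were also smallest without SLE-BDL replicate 7, at -0.45 for F2 and -0.55 for SERPINF2. MLE-sham and MLE-BDL did not overlap for either gene, F2 being at 2946 to 3714 CPM (median 3379) and 1861 to 2233 CPM (median 2099.8). The 27 hepatocyte markers had 25 differences below 0, a median of -0.42, and FGB as the gene called. G6PC, itself called as lower, was not matched to its entry among these markers and is not 1 of the 27. With library totals alone 18 of the 27 were below 0 and the median was -0.188. Of these markers 13 fell on MLE, and 1 fell on SLE (6.58% and 1.57% of all genes).

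Genes of gluconeogenesis and amino acid breakdown had 33 of 41 differences below 0 and a median of -0.272, with none called in edgeR, 1 in DESeq2, and 2 in limma. DESeq2 called 119 and limma 153 higher and 176 lower of all 16210 genes. The called gene G6PC was not matched to its entry in this list and is not among the 41. On MLE 16 of them fell and 1 rose, and on SLE 2 fell and 3 rose, where 6.58%, 7.85%, 1.57%, and 2.97% of all genes did so. With library totals alone that median was -0.0539. MAT1A, which makes S-adenosylmethionine, had a difference of -0.79 ± 0.21 (adjusted p = 0.0731, edgeR), and GNMT, which consumes it, of -1.27 ± 0.37 (adjusted p = 0.131). Apolipoprotein and lipoprotein genes fell in 12 of 30 cases on MLE and in 1 on SLE (6.58% and 1.57% of all genes). LPL was the member called, in the higher direction, and the median difference of the list was -0.144 on the TMM scale and 0.0588 with library totals alone. Circadian clock genes had 7 of 24 falls on MLE and 1 fall and 1 rise on SLE, beside 6.58%, 1.57%, and 2.97% of all genes, and none was called for the difference in edgeR, against 1 in DESeq2 and 2 in limma. RORA, a nuclear receptor of the clock, was at -1.15 ± 0.29 (adjusted p = 0.068).

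**Figure D5:**
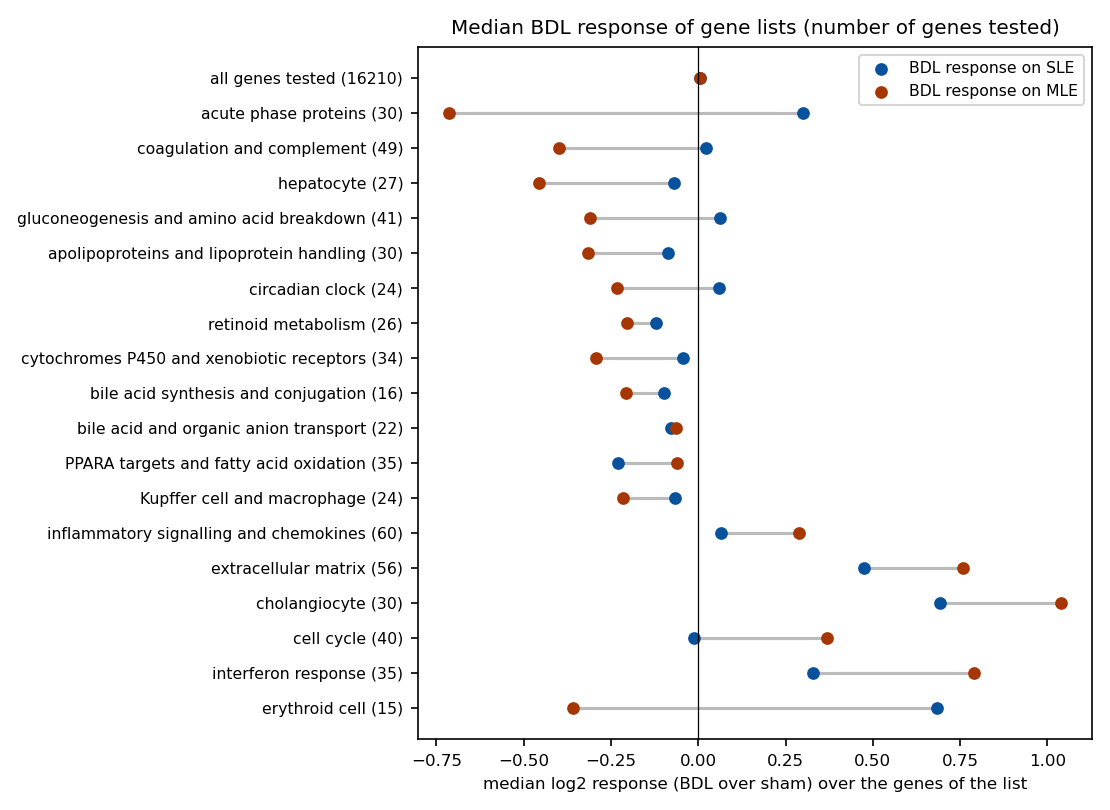
Median log2 BDL response of the genes in each list on SLE and on MLE, with the number of genes tested in brackets; the gray line joins the medians. The acute phase list goes from 0.299 on SLE to -0.715 on MLE, while the median over all genes lies close to 0 on both.

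Among genes of ductular reaction, matrix, and inflammation, some rose after BDL on each emulsion, and the difference passed the threshold in edgeR for 1 gene of these lists, CNTFR. DESeq2 called 1 gene of the inflammatory list, and limma 3 cholangiocyte, 2 matrix, and 10 inflammatory genes. Over all 16210 genes, DESeq2 called 119 and limma 153 higher and 176 lower. Of 30 cholangiocyte markers 20 rose on MLE and 9 on SLE, beside 7.85% and 2.97% of all genes, with median responses of 1.04 and 0.693. Of 56 extracellular matrix genes 36 rose and 4 fell on MLE and 17 rose and 1 fell on SLE (all genes 7.85%, 6.58%, 2.97%, and 1.57%), with medians of 0.759 and 0.475. Median differences were 0.228 and 0.223. SOX9, a regulator of duct cell fate, was at 2.24 to 8.12 CPM (median 6.64) in MLE-sham, 13.3 to 23.9 CPM (median 19.3) in MLE-BDL, 3.37 to 11.9 CPM (median 7.81) in SLE-sham, and 4.54 to 20.6 CPM (median 13.8) in SLE-BDL. Its difference was 0.81 ± 0.44 (95% interval -0.06 to 1.69; adjusted p = 0.555, edgeR). KRT7 and KRT19, the keratins of bile duct cells, had differences of 0.38 (95% interval -0.66 to 1.41) and 0.94 (0.18 to 1.70). For MMP7, a matrix metalloproteinase of injured ducts, the value was 0.66 (-0.92 to 2.24), for COL1A1, a chain of type I collagen, 0.70 (-0.30 to 1.70), and for TGFB1 0.28 (-0.10 to 0.67). These intervals are wide, and a difference of 1 on the log2 scale lies within those of SOX9, KRT7, KRT19, MMP7, and COL1A1.

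Of 60 inflammatory genes 17 rose and 3 fell on MLE and 6 rose on SLE, beside 7.85%, 6.58%, and 2.97% of all genes, with median responses of 0.29 and 0.0664, 43 differences were above 0, and the median difference was 0.323. CXCL8, the neutrophil chemokine, rose on both emulsions, by 3.73 on MLE and 2.004 on SLE. MLE-sham pigs were at 0.299 to 2.12 CPM (median 0.847) and MLE-BDL pigs at 8.49 to 20.5 CPM (median 12.6), without overlap, and SLE pigs at 1.09 to 5.65 CPM (median 2.65) in sham and 3.9 to 23 CPM (median 11.7) in BDL. Its difference was 1.73 ± 0.87 (95% interval -0.02 to 3.47; adjusted p = 0.518, edgeR). SPP1, osteopontin, was at 20.6 to 42.8 CPM (median 30.1) in MLE-sham and 57.7 to 197 CPM (median 105) in SLE-sham, which were apart, and at 38.8 to 149 CPM (median 83.7) and 43.3 to 239 CPM (median 107) in the BDL groups. Its difference of 1.49 ± 0.42 had an adjusted p of 0.11.

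Macrophage markers did not move as 1 group beside LGALS3, LPL, and TREM2. Of 24 such markers 11 differences were above 0 and 13 below, with a median of -0.102 (0.0972 with library totals alone), and TREM2 was the member called. On MLE 7 rose and 5 fell, beside 7.85% and 6.58% of all genes. Among the members that rose on MLE, GPNMB, ITGAX, and MSR1 were chosen after their values were seen, and their differences of responses were not called. These were 1.495 for GPNMB (adjusted p = 0.0518, edgeR), 1.19 for ITGAX (adjusted p = 0.257), and 0.62 for MSR1 (adjusted p = 0.292). The complement genes C1QA and C1QC, which resident macrophages express, fell on MLE, with differences of -0.27 and -0.19 (adjusted p = 0.779 and 0.858). The summed level of the 24 markers was 2223 to 3490 CPM in MLE-sham, 1856 to 2707 in MLE-BDL, 2313 to 3358 in SLE-sham, and 2172 to 2831 in SLE-BDL, and none was at 0 in all pigs. CD14 made up 20.2% of that sum and is also made by hepatocytes. The part of macrophage numbers in the levels of LGALS3, LPL, and TREM2 was not tested.

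In the bile acid genes, no difference was called among 16 genes of synthesis and conjugation, 22 of transport, and 15 of the FXR and FGF19 axis, with 4, 1, and 2 genes at an unadjusted p under 0.05 in edgeR, beside 9.76% of all genes. DESeq2 called 1 gene of synthesis, and limma 2 of synthesis and 1 of transport. Their calls over all 16210 genes were 119 in DESeq2 and 153 higher and 176 lower in limma. CYP7A1, the rate-limiting enzyme of bile acid synthesis, rose on both emulsions, by 2.84 ± 0.83 on MLE and 3.51 ± 0.69 on SLE, from medians of 0.335 and 0.497 CPM in sham pigs. The CYP7A1 difference of -0.66 had a 95% interval of -2.98 to 1.65. By qPCR, the authors reported that lower plasma FGF19 in MLE-BDL pigs came without a rise of CYP7A1. NR0B2, the repressor SHP downstream of FXR, was at -0.20 (-0.67 to 0.27), and ABCB11, the bile salt export pump, at 0.20 (-0.30 to 0.70). SLC51B, a subunit of the basolateral bile acid exporter, rose on MLE by 1.30 ± 0.36, its SLE response was 0.34 ± 0.32, and its difference was 0.97 ± 0.47 (adjusted p = 0.503). SULT2A1, which sulfates bile acids, came closest to the threshold at -1.85 ± 0.49 (adjusted p = 0.0804). It fell on MLE, where sham pigs were at 21.5 to 116 CPM (median 78.5) and BDL pigs at 13.1 to 46 CPM (median 27.5), and on SLE it was at 16.6 to 170.4 CPM (median 53.1) and 33.5 to 242 CPM (median 81).

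Lipid synthesis and oxidation genes also had no called difference: 0 of 24 for cholesterol, 0 of 28 for lipogenesis, and 0 of 35 for PPARA targets, with 0, 5, and 3 at an unadjusted p under 0.05 in edgeR (9.76% of all genes). DESeq2 called none of them, and limma 2 of lipogenesis, beside 119 of all 16210 genes in DESeq2 and 153 higher and 176 lower in limma. Of the 35 PPARA targets 7 fell on SLE and 3 on MLE, beside 1.57% and 6.58% of all genes. MFSD2A, a lysolipid transporter, rose on SLE by 3.03 ± 0.68 and was at 0.22 ± 0.80 on MLE, with a difference of -2.82 ± 1.04 (adjusted p = 0.317). The SLE rise came with a wide spread, since SLE-BDL pigs ran from 0.289 to 172 CPM (median 3.09), and the difference was 0.048 in limma with sample weights. FGF23, SDS, and EPO likewise rose on SLE with 1 or more SLE-BDL pigs far above the group median. Highest and median levels in SLE-BDL were 69.4 and 5.26 CPM for FGF23, 152 and 6.04 for SDS, and 22.5 and 1.14 for EPO, and no difference of these 3 genes was called.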

How the data were processed

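Liver RNA-Seq counts of 60 pigs were analysed, and replicates were separate pigs as labeled, except that SLE-sham replicates 9 and 10 share an identifier. The authors trimmed reads with fastp, aligned them to Sscrofa11.1 with HISAT2 (2.0.5), assembled with StringTie (1.3.3), and counted with featureCounts (1.5.0-p3), per the labels. The deposited values were raw counts per gene, unnormalized, and the strand setting of the counting was not given in the sources used here. Without strand, reads of overlapping and antisense genes cannot be told apart, and members of near-identical families such as cytochromes P450, metallothioneins, and globins are uncertain. Gene positions and types came from the table, and its gene lengths were not used. Of 30359 features, 24 without a gene name (0.00842% to 0.0407% of a library) were left out of library sizes and tests.

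The filter on low counts was filterByExpr with the 6 groups given. Counts were scaled by TMM and tested with estimateDisp, robust glmQLFit, and glmQLFTest in edgeR 4.0.16 (R 4.3.3), two-sided, with Benjamini-Hochberg adjustment over 16210 genes and a threshold of 0.05 at any fold change. All 60 pigs entered 1 model, so that the groups share their estimate of the spread. Log2 CPM used a prior count of 2. The contrasts, DESeq2 1.42.0 and limma 3.58.1 fits, other scalings and filters, blocks on the replicate number and on the number in the pig label, and fits without single pigs are given below. Pigs of different groups with the same label number had a median residual correlation of 0.131 (62 pairs), against -0.018 in 477 other pairs.

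The comparison, gene lists, and tests were chosen with earlier results of these data known. Named genes were the first 30 called genes with a symbol by adjusted p, the members of each list that were called or otherwise up to 2 with the smallest p, a panel of injury, bile acid, and lipid genes, and up to 3 called features without a symbol. 1 gene named by this rule is not reported here. G6PC was not matched to the list entry G6PC1. The model was tested on simulated data with 16054 genes in the fit, where 5 unchanged genes were called. Precision follows from the spread between pigs, given by the SE, which includes counting error.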

Additional observations from a re-analysis of the deposited data

Results flagged for a closer look

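The 2 emulsions differed in their BDL response for 43 genes by the test of the difference itself in edgeR. The 40 of these that are named are given here by how often they stayed called when each of the 38 parenteral pigs was left out in turn. In all 38 fits the lower differences, MLE minus SLE on the log2 scale, were -1.65 for FAM20A, -1.78 for ITIH4, -2.32 for HP, -1.53 for WDR86, -1.06 for EFNA1, -1.13 for FGG, -1.13 for FGB, -1.11 for FGA, -0.62 for NFIB, -1.10 for SERPINF1, -0.84 for CERS4, -1.32 for LOC100627270, and -2.31 for LOC106504875. The higher differences called in all 38 were 1.34 for CNTFR, 3.35 for LGALS3, 1.56 for FAS, and 2.77 for SLC18A2. In 36 or 37 fits the values were 3.73 for LPL, 3.59 for TREM2, 1.59 for CPM (carboxypeptidase M), -0.52 for GDF9, -0.52 for NEK7, -0.88 for ACTR3B, and -1.04 for RAB15. Called in 26 to 33 fits were LOC102166227 at -1.58, C8H4orf32 at -1.10, GC at -0.68, RASGEF1B at -0.58, and FGL1 at -1.004. In 13 to 19 fits the called genes were EDARADD at 2.99, TTPA at -1.01, CLDN1 at -0.64, ZCCHC24 at -0.62, PACSIN3 at -0.58, TUBB2B at 1.26, HOMER2 at -1.24, PCTP at -1.32, ZNF683 at 1.63, QSOX1 at -0.65, and G6PC at -1.72.

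A pig far from the rest of its group by Dixon's criterion on log2 CPM was found 23 times over 117 named genes, each tested in 3 groups of 8 to 10 pigs, where chance alone gives about 1 in 20. SLE-BDL, with 11 pigs, was not tested in this way. In MLE-sham replicate 2 the outlying values were 3.34 CPM for FAS, 0.705 for HK2, 38.7 for IFNAR2, 23.9 for PSMB9, 216 for ABCB11, and 14.5 for SDS. For FAS the other 8 MLE-sham pigs were at 1.08 to 1.69 CPM. MLE-sham replicate 6 had 45.6 CPM of BCAT1 and 33.1 of CYP2E1, and MLE-sham replicate 7 had 829.4 CPM of QSOX1. In the MLE-BDL group, replicate 1 stood apart at 3.76 CPM for C8H4orf32 and 104 for TYMS, replicate 2 at 4.52 for TUBB2B, 39 for DERL2, and 47.6 for RDH16, replicate 3 at 31.7 for CLEC4G, and replicate 8 at 12.1 for SLC51B, 17.8 for NR0B2, and 60.6 for PACSIN3. Among SLE-sham pigs, replicate 1 stood apart at 4.61 CPM for C8H4orf32 and 102 for GLS2, replicate 2 at 48.7 for NEK7, replicate 4 at 0.915 for LOC102166227, and replicate 7 at 0.119 for LOC106504875.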

How the results depend on the processing

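All 43 genes called for the difference kept their direction in every alternative in which they were fitted. DESeq2 on all pigs called 119 genes and shared all 43, DESeq2 on the 38 parenteral pigs 161 (all 43 shared), limma with sample weights 153 higher and 176 lower (41 shared), and edgeR on the 38 pigs 44 (29 shared). A replicate block gave 30 genes (27 shared), but same-numbered pigs of different groups had residual correlations of -0.231 to 0.238, so the replicate number did not pair them, and the calls lost with that block are no sign of a weaker effect. The block on the label number gave 33 genes for the difference and 16 between BDL groups, from 147 without it. Leaving out the SLE-BDL pigs whose label number no SLE-sham or MLE pig had gave 21 genes (317 for the SLE response), and keeping only pigs with a label number of MLE pigs gave 1, with 55 for the SLE response, 85 between sham groups, and 65 between BDL groups, from fewer samples. Chosen after the data were seen, leaving out ENT-sham replicate 2 and ENT-BDL replicate 1, which share a label number and a TMM factor of 1.197, gave 81 genes. Leaving out MLE-sham replicate 2 and SLE-BDL replicate 6 gave 98, and 240 between BDL groups. Library totals without TMM gave 124 (26 shared, 11 higher and 15 lower), with 5084 for the MLE response and 401 between BDL groups.

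Other counts that moved by over 1.5 times were, for the MLE response, 4228 with limma and 612 above 2-fold, and for the SLE response 1192 with DESeq2 on the 38 pigs, 471 with limma, and 241 above 2-fold. Between sham groups the counts were 277 and 367 with DESeq2, 555 with limma, 105 with at least 10 counts in every pig, and 75 above 2-fold. Between BDL groups they were 310 and 369 with DESeq2, 405 with limma, and 60 above 2-fold. The cause was not tested.

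Leaving out 1 pig at a time gave 22 to 96 genes for the difference, 1892 to 2418 for the MLE response, 484 to 931 for the SLE response, 82 to 209 between sham groups, and 53 to 222 between BDL groups. For the difference, the count moved by over 1.5 times without MLE-BDL replicate 5 (22), 7 (23), 4 (24), or 1 (25), MLE-sham replicate 4 (24), 9 (27), or 6 (69), SLE-sham replicate 4 (24), 1 (25), 9 (65), or 2 (66), and SLE-BDL replicate 5 (24), 9 (72), or 6 (96). The SLE response had 484 genes without SLE-BDL replicate 9.

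Differences that changed sign belonged to genes that were not called: NR0B2 (0.024) with library totals, MFSD2A (0.048), NR0B2 (0.022), EPO (0.38), SLC25A47 (0.088), and ABCC8 (0.43) with limma, CYP7A1 (0.0024), HAMP (-0.0098), and ABCC8 (0.59) with the label-number block, CYP7A1 (0.092), SLC25A47 (0.64), and ABCC8 (1.64) in pigs with a label number of MLE pigs, and CYP7A1 (0.33) and ABCB11 (-0.053) without the SLE-BDL pigs whose label number no SLE-sham or MLE pig had. Over the fits without 1 pig, CYP7A1 ranged from -1.10 to 0.22, SLC25A47 from -0.50 to 0.048, and HAMP from -0.19 to 1.04. On simulated counts of the same size, 68 of 100 genes with a log2 difference of 1 and 94 of 100 with 2 were called, so that many differences of the size of 1 would be missed with these numbers of pigs.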

Other observations

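Genes of the cell cycle, which rise when liver cells divide, had no gene called for the difference in edgeR, DESeq2, or limma, and 1 (TYMS) with the label-number block. That block called 33 of all 16210 genes. Of 40 genes 38 had a difference above 0, with a median of 0.35, and 7 were at an unadjusted p under 0.05, beside 9.76% of all genes. On MLE 4 of them rose, beside 7.85% of all genes, and none fell, and on SLE none was called. TYMS, which makes thymidylate for DNA synthesis, had a difference of 0.86 ± 0.31 (SE), and MCM6, a subunit of the replicative helicase, of 0.48 ± 0.18. Among the pigs with a label number of MLE pigs, 32 of the 40 differences were above 0 and the median was 0.167.

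Interferon response genes had 32 of 35 differences above 0 and a median of 0.5, with none called in edgeR or DESeq2, 1 called in limma, and 1 at an unadjusted p under 0.05 in edgeR. Of all 16210 genes DESeq2 called 119 and limma 153 higher and 176 lower. The spread between pigs of a group was wide, with summed levels of 1032 to 9114 CPM in SLE-sham, 913.9 to 10910 in SLE-BDL, 873.1 to 2169 in MLE-sham, and 1196 to 4388 in MLE-BDL. Erythroid genes had all 15 differences below 0 and a median of -1.10, with 3 at an unadjusted p under 0.05 (9.76% of all genes) and none called in edgeR, while DESeq2 and limma each called 1 (ALAS2). The median was -0.331 with the label number as a block. HBB, the beta-globin, was at 423 to 765 CPM in MLE-sham and 133 to 477 in MLE-BDL, against 205 to 754 in SLE-sham and 121 to 1259 in SLE-BDL. Lymphocyte markers had 18 of 22 differences above 0 and a median of 0.279, with none called in edgeR, DESeq2, or limma. Neutrophil markers summed to 49.5 to 115 CPM in MLE-sham and 59.4 to 129 in MLE-BDL, and to 69.8 to 121 in SLE-sham and 70.4 to 172 in SLE-BDL, and the median of their 15 differences was 0.0935.

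Of the markers of other tissues, 22 of 29 muscle genes and 18 of 21 pancreas and intestine genes had a median below 1 CPM. The 24 stellate cell and myofibroblast markers had a median difference of -0.141 (0.0732 with library totals alone), and the 18 endothelial markers of -0.166 (0.0414 with library totals alone), with none called in edgeR in either list. DESeq2 and limma each called 1 stellate cell marker (DES), beside 119 of all 16210 genes in DESeq2 and 153 higher and 176 lower in limma. DES, the intermediate filament desmin of muscle and stellate cells, was at 9.84 to 16.9 CPM in MLE-sham and 5.2 to 9.25 in MLE-BDL, without overlap, and its difference was -0.93 ± 0.23 (adjusted p = 0.0599, edgeR).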
